A study of Mus musculus with 16 samples.

Results

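A set of 10 genes that make, break down or sense prostaglandins, or that make leukotrienes, was followed in mouse mammary tumours under PD-1 blockade. They were taken by name from the 47311 genes of the deposited tables, as listed enzymes and receptors of both pathways, and are Ptgs1, Ptgs2, Ptges, Ptgis, Ptgds, Hpgd, Ptger2, Ptger4, Alox5 and Alox5ap. All 10 had reads, and 9 passed the filter on low counts, Ptgds being the exception. Bulk RNA came from 16 tumours, 8 from mice given anti-PD-1, an antibody against the inhibitory T cell receptor PD-1, and 8 from mice given an IgG2a isotype control antibody. All mice were female C57BL/6J made obese on feed whose fat supplied 60% of the energy, fed from 8 to 26 weeks of age. All carried E0771-luciferase cells, a C57BL/6 mammary cancer line with a luciferase reporter, of which 250000 had been placed in mammary gland 4. Antibody, 200 ug per injection, was given every 3 days from day 3 until the mice were killed on day 21. Each tumour came from its own animal, and both groups share the diet, the tumour line and the sex, so neither obesity nor tumour growth is compared here.

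Prostaglandins and leukotrienes are lipid mediators made from arachidonic acid, which phospholipases free from membranes. The cyclooxygenases, encoded by Ptgs1 and Ptgs2, turn it into prostaglandin H2, terminal synthases turn that into single prostanoids, and Hpgd inactivates the products. Arachidonate 5-lipoxygenase, encoded by Alox5, starts leukotriene synthesis with its partner protein, encoded by Alox5ap. Prostaglandin E2 is well known in tumours for restraining T cells and dendritic cells through its receptors EP2 and EP4, encoded by Ptger2 and Ptger4. Ptgs2 is the inducible cyclooxygenase, switched on by interleukin-1 and other inflammatory signals, and myeloid cells are among its sources.

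The libraries held 59036535 to 82591064 estimated reads each. The comparison of anti-PD-1 with IgG2a, which asks what the blockade did to tumour transcripts in obese mice, gave no gene an adjusted p under 0.05 in edgeR's quasi-likelihood test (0 of 16154, or 0%), while 1836 had an unadjusted p under 0.05, and DESeq2 called 4 genes, no member among them. A group of 3 tumours stood apart by markers of other tissues or by detection. IgG2a replicate 7 had the highest level of the 16 tumours for 10 of 10 macrophage, 7 of 7 tested adipocyte, 8 of 8 endothelial and 6 of 6 tested erythroid markers. It was also the highest for 8 of 8 adventitial stroma and 7 of 8 epithelial tumour markers. IgG2a replicate 3 had the highest level of 7 of 7 tested skeletal muscle markers. Fewest transcripts had reads in anti-PD-1 replicate 6, which held 38993, while each of the other 15 tumours held 47997 to 55476. Results that rest on these 3 are given with and without them.

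The promoters of Ptgs2, of its constitutive relative Ptgs1 and of Il1b, the gene set against Ptgs2 further on, are shown because Ptgs2 varied with Il1b across the tumours, while no relation of Ptgs2 to Ptgs1 was detectable (values further on). Each line gives 250 bases before the transcription start site and the first 50 after it, 5′ to 3′ on the strand of the gene, from RefSeq on GRCm38.p6. Capitals mark matches to 6 short motifs searched on both strands, namely NF-kB (GGG and CC with 5 bases of any kind between them), C/EBP (TTNNGNAA), CRE (TGACGTCA), E-box (CACGTG), PU.1 (GAGGAAG) and TATA box (TATAAA).
Ptgs2 promoter, chr1:150099781-150100080, plus strand: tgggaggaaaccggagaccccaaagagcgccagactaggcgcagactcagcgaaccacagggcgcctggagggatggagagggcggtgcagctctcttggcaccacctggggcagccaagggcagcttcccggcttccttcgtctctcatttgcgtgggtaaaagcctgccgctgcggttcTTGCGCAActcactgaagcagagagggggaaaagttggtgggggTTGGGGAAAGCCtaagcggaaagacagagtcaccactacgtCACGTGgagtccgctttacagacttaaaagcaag
Ptgs1 promoter, chr2:36230176-36230475, plus strand: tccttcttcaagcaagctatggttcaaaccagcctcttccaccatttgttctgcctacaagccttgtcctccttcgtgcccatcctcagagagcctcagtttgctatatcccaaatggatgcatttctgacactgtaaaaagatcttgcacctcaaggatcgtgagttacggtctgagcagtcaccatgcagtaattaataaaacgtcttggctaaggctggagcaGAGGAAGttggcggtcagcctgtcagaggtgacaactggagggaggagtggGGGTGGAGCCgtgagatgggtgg
Il1b promoter, chr2:129371090-129371389, minus strand: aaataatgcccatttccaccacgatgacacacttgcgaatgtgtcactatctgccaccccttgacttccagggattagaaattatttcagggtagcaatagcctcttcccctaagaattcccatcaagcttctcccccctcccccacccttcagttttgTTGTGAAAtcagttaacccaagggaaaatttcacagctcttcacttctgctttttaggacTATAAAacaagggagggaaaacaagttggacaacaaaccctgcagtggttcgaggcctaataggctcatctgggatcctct

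The Ptgs2 window held 2 C/EBP matches, which begin 69 and 25 bases before the start site, and an NF-kB match that begins 23 bases before it and overlaps the second of them. It also held an E-box that begins at base 17 of the transcript, counting the start site as base 1. The Ptgs1 window had neither C/EBP match nor E-box, but a PU.1 match beginning 24 bases before the start site and an NF-kB match beginning at base 28 after it. The Il1b window held a C/EBP match beginning 91 bases and a TATA box beginning 31 bases before the start site. These short motifs are common. Among all 32851 promoters of the same length in the table, 50.8% held an NF-kB match, 40.7% a C/EBP match, 13.6% a PU.1 match, 13.6% a TATA box, 7.15% an E-box and 1.79% a CRE. A match describes the letters in this window and is no measure of binding. Of the 10 genes 8 had a promoter in the table, and Ptgis and Alox5ap did not.

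Levels between genes were compared in TPM, the deposited unit that scales reads for transcript length and library size. Ptges, the inducible synthase of prostaglandin E2, had the highest median over the 16 tumours at 203 TPM, ranging from 41.5 to 342 TPM. Alox5ap followed with a median of 181 TPM and a range of 125 to 495 TPM. Ptgs1 had a median of 13.6 TPM and Ptgs2 one of 7.12 TPM. The other 6 genes had medians of 1.97 TPM for Ptger4, 0.804 TPM for Ptgis, 0.668 TPM for Hpgd, 0.506 TPM for Alox5, 0.311 TPM for Ptger2 and 0.193 TPM for Ptgds. The transcript of the partner protein of 5-lipoxygenase thus stood far above that of the enzyme itself. The only neighbours in this order whose ranges did not overlap were Alox5ap and Ptgs1, with Alox5ap the higher in 16 of 16 tumours. Ptges exceeded Alox5ap in 9 of 16 tumours and Ptgs1 exceeded Ptgs2 in 13 of 16.

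Transcript assignment bears on these levels. For Alox5ap a median of 42.3% of the reads went to the transcript Alox5ap-201, and the rest to short transcripts, which weigh more in TPM. That transcript alone had a median of 26.2 TPM, between 22.3 and 69.6 TPM. For Ptges, the transcript Ptges-202 had a median of 113 TPM. All reads of Ptgs2 were assigned to Ptgs2-201. For Ptgs1 a median of 95.3% of reads went to the coding transcript Ptgs1-201, but in anti-PD-1 replicate 6 79.8% and in IgG2a replicate 3 38.8% were assigned to a transcript annotated as non-coding, which had no reads in the other 14 tumours. For Alox5, 94.6% of the 48 reads of anti-PD-1 replicate 6 were assigned to a transcript with a retained intron.

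**Figure D1:**
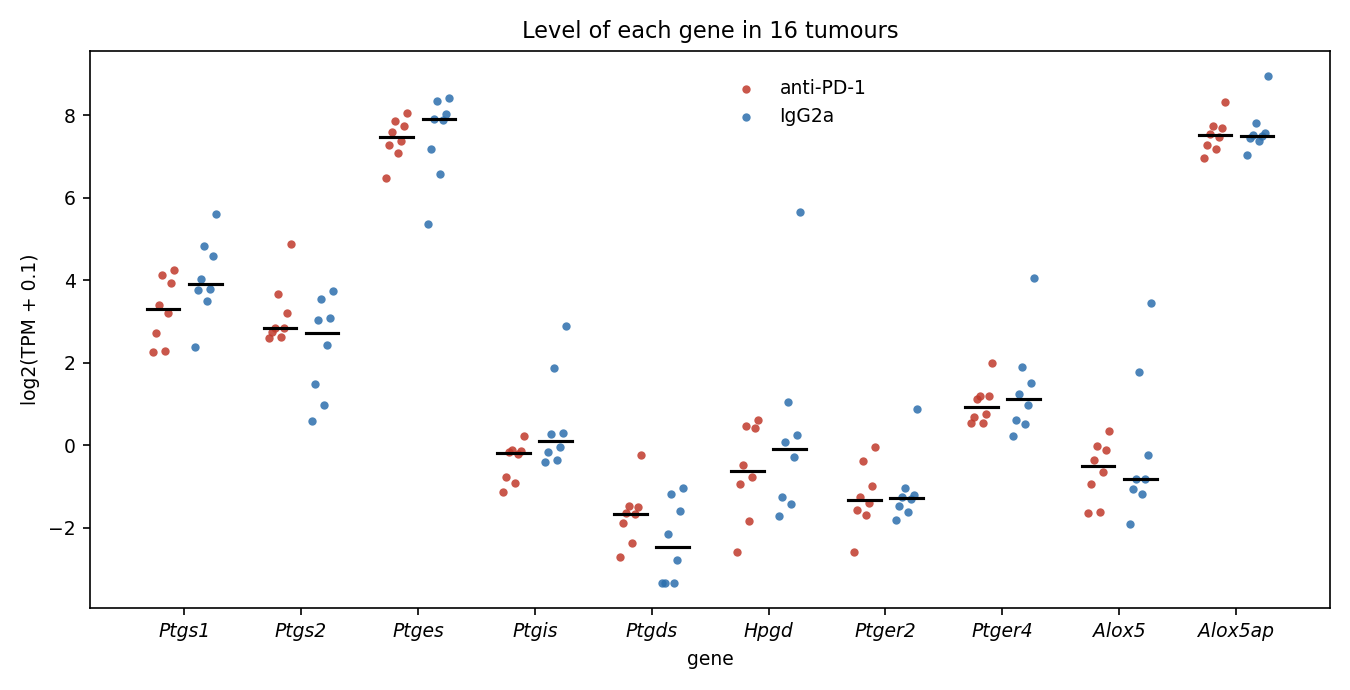
Level of the 10 genes in each tumour as log2(TPM + 0.1), anti-PD-1 left and IgG2a right of each pair, with a point per tumour and a line at the group median. Ptges and Alox5ap lie highest, the groups overlap for every gene, and single IgG2a tumours lie far above the others for Ptgis, Hpgd, Ptger4 and Alox5.

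Group comparisons were made on counts scaled to library size (CPM), and the ranges of the groups overlapped for every gene. Ptgs1 (ENSMUSG00000047250, chromosome 2, 36230426 to 36252272 in GRCm38, plus strand) encodes the constitutive cyclooxygenase. It had a lowest, median and highest level of 11.8, 19.0 and 30.9 CPM under anti-PD-1, and of 11.4, 29.1 and 59.5 CPM under IgG2a. Of the 8 anti-PD-1 tumours, 2 lay above the IgG2a median, and IgG2a replicate 4 was the highest. The log2 fold change of Ptgs1 was -0.57 ± 0.29 (SE), with an adjusted p of 0.435 by edgeR. Without IgG2a replicate 4 it was -0.37, and with the 3 outlying tumours left out it was -0.72 ± 0.28 (SE), adjusted p = 0.279.

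Ptgs2 (ENSMUSG00000032487, chromosome 1, 150100031 to 150108227, plus strand), the inducible cyclooxygenase, had 20.9, 25.6 and 118 CPM under anti-PD-1 (lowest, median, highest), and 6.35, 23.2 and 49.0 CPM under IgG2a. Anti-PD-1 replicate 1 stood highest with 9009 reads, and the lowest values were those of IgG2a replicates 3, 7 and 1. Of the 8 anti-PD-1 tumours, 7 lay above the IgG2a median, although the medians differed little. The log2 fold change of Ptgs2 was 0.87 ± 0.47 (SE), with a 95% interval of -0.13 to 1.86 and an adjusted p of 0.439. Without anti-PD-1 replicate 1 it was 0.45, and without the 3 tumours that stood apart it was 0.49. Among the 6 tumours of lower animal number it was 1.83, and among the 10 of higher number 0.34.

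The balance of the 2 cyclooxygenases within a tumour was tested as the log2 ratio of their TPM, each with 0.1 added. The ratio of Ptgs2 to Ptgs1 was -1.55, -0.24 and 2.61 under anti-PD-1 (lowest, median, highest), and -2.77, -1.92 and -0.06 under IgG2a. Ptgs2 exceeded Ptgs1 in 3 of 8 anti-PD-1 tumours and in 0 of 8 IgG2a tumours, and 8 of 8 anti-PD-1 tumours lay above the IgG2a median. The mean ratio was higher under anti-PD-1 by 1.60 log2 units, with -0.10 ± 1.39 in the anti-PD-1 tumours against -1.70 ± 0.99 in the IgG2a tumours (SD, 8 per group, two-sided exact permutation p = 0.0162, adjusted p = 0.0323 over the 2 ratios tested). The difference kept its sign when any single tumour was left out, between 1.21 and 1.83, but the adjusted p was then above 0.05 in 8 of 16 cases. These were the ones without anti-PD-1 replicates 1, 5 or 6, or without IgG2a replicates 1, 3, 4, 7 or 8. With all 3 outlying tumours left out the difference was 1.26 (exact permutation p adjusted = 0.192), so the call depends on single tumours. The animal numbers in the labels fall into a lower run of 6 tumours and a higher run of 10. The difference was 1.89 within the lower run (exact permutation p = 0.20, where 3 against 3 cannot go below 0.1) and 1.42 within the higher run (exact permutation p = 0.0635), and passed in neither alone. In anti-PD-1 replicate 6 and IgG2a replicate 3 the Ptgs1 level includes the reads assigned to the non-coding transcript.

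**Figure D2:**
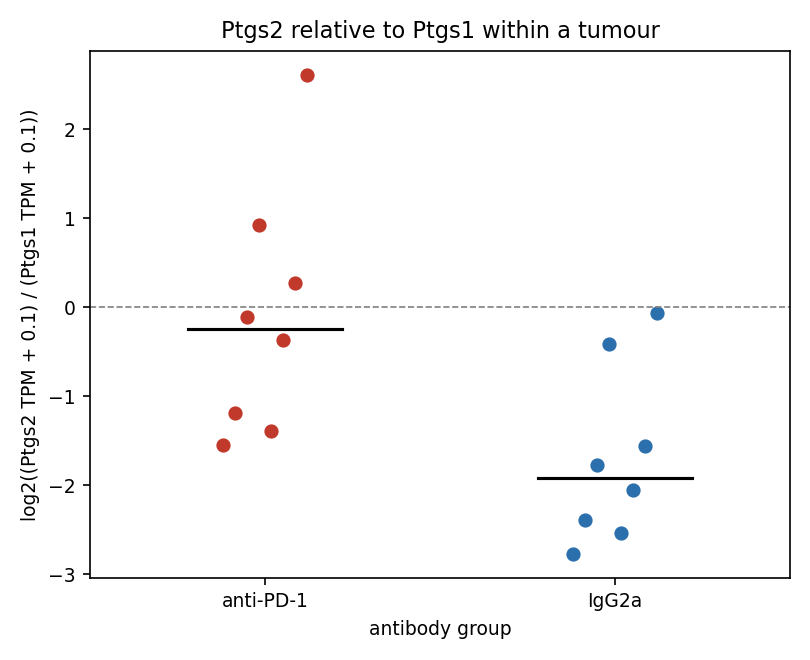
Log2 ratio of Ptgs2 to Ptgs1 in each tumour, from TPM + 0.1, for anti-PD-1 (left) and IgG2a (right), with a point per tumour and a line at the group median. All 8 IgG2a tumours lie below 0, and 3 of 8 anti-PD-1 tumours lie above it.

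Among the terminal synthases, Ptges (ENSMUSG00000050737, chromosome 2, 30889471 to 30929863, minus strand) had 246, 349.6 and 433 CPM under anti-PD-1, and 73.6, 410.2 and 568.4 CPM under IgG2a. IgG2a replicate 7 was far below all other tumours, whose lowest had 231 CPM. Ptges differed by -0.07 ± 0.29 (SE) on the log2 scale, adjusted p = 0.914. Ptgis (ENSMUSG00000017969, chromosome 2, 167191805 to 167240604, minus strand), which encodes prostacyclin synthase, an enzyme of endothelium and smooth muscle, had 0.621, 1.15 and 2.19 CPM under anti-PD-1, and 0.899, 1.38 and 14.4 CPM under IgG2a. The 2 highest tumours for Ptgis were IgG2a replicate 3, with 14.4 CPM, and IgG2a replicate 7, with 5.16 CPM. For Ptgis the log2 fold change was -1.53 ± 0.58 (SE), adjusted p = 0.434, which became -0.63 when IgG2a replicate 3 was left out and -0.31 when all 3 outlying tumours were.

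The muscle markers that were high differed between these 2 tumours. The listed smooth muscle and pericyte markers include Des, which skeletal muscle also expresses. Their summed level was 173 to 317 CPM under anti-PD-1 and 166 to 2565 CPM under IgG2a, with 2565 CPM in IgG2a replicate 3 and 833 CPM in IgG2a replicate 7. Of the 2565 CPM in IgG2a replicate 3, Des alone gave 2276 CPM, and the other 7 markers summed to 289 CPM there and to 815 CPM in IgG2a replicate 7. In IgG2a replicate 3 the skeletal muscle markers summed to 31013 CPM, beside 2.52 to 155 CPM under anti-PD-1 and 8.80 CPM in IgG2a replicate 7. The mean of the skeletal muscle markers correlated with Ptgis at r = 0.700 and rho = 0.288 over 16 tumours (adjusted permutation p = 0.0411 for r and 0.450 for rho), and at r = 0.240 without IgG2a replicates 3 and 7. Other marker lists also passed with Ptgis by r over 16 tumours. These were adventitial stroma (0.738, adjusted permutation p = 0.0244), smooth muscle and pericyte (0.727, adjusted permutation p = 0.0234) and B cell markers (0.579, adjusted permutation p = 0.0244). Their rho was 0.394, 0.403 and 0.432 in that order and did not pass. Without IgG2a replicates 3 and 7 their r was 0.209, 0.189 and 0.248. The smooth muscle and pericyte mean includes Des. The endothelial markers did not pass with Ptgis, at r = 0.531 (adjusted permutation p = 0.115) and rho = 0.241. Their r was -0.049 without IgG2a replicates 3 and 7. None of the 8 listed smooth muscle and pericyte markers was at 0 in all tumours, and 6 of 8 were highest in IgG2a replicate 7 and 1 of 8 in IgG2a replicate 3. The part of any of these marker lists in the Ptgis values was not tested. In bulk tissue, fewer cells of a type and less RNA per cell cannot be told apart, here and for each gene below. Ptgds (ENSMUSG00000015090, chromosome 2, 25466709 to 25470046, minus strand), the lipocalin-type prostaglandin D synthase, had 91 reads in all. It had 2 to 19 reads per tumour under anti-PD-1 and 0 to 12 under IgG2a, and was not tested. In IgG2a replicates 5, 7 and 8 it had 0 reads, which allows up to 3 reads, or 0.0416 to 0.0460 CPM, for counting error only.

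Hpgd (ENSMUSG00000031613, chromosome 8, 56294585 to 56321043, plus strand) encodes the dehydrogenase that inactivates prostaglandins. It had 0.0932, 0.691 and 2.68 CPM under anti-PD-1, and 0.236, 1.06 and 66.8 CPM under IgG2a. A single tumour, IgG2a replicate 7, held 4148 reads of Hpgd, and the next highest IgG2a tumour had 3.08 CPM. On the log2 scale Hpgd differed by -3.13 ± 1.19 (SE), adjusted p = 0.434. Leaving out IgG2a replicate 7 gave -0.01 ± 0.65 (SE), and leaving out all 3 outlying tumours gave 0.18. The log2 ratio of Ptgs2 to Hpgd, a measure of synthesis against breakdown at the transcript level, was 2.27, 3.35 and 5.80 under anti-PD-1, and -4.66, 2.78 and 5.27 under IgG2a. The difference of the means was 1.74 (exact permutation p = 0.198, adjusted p = 0.198), with IgG2a replicate 7 the lowest.

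The receptor genes of the set, Ptger2 and Ptger4, were low. Ptger2 (ENSMUSG00000037759, chromosome 14, 44988195 to 45003820, plus strand), encoding EP2, had 0.217, 0.887 and 2.91 CPM under anti-PD-1, and 0.501, 0.871 and 5.46 CPM under IgG2a. IgG2a replicate 7 and then anti-PD-1 replicate 1 were the highest. The log2 fold change of Ptger2 was -0.17 ± 0.56 (SE), adjusted p = 0.892, and 0.55 without IgG2a replicate 7. Ptger4 (ENSMUSG00000039942, chromosome 15, 5206661 to 5244187, minus strand), encoding EP4, had 3.85, 5.82 and 10.3 CPM under anti-PD-1, and 2.54, 6.05 and 45.3 CPM under IgG2a. IgG2a replicate 7 was again the highest, and anti-PD-1 replicate 5 the highest of its group. Ptger4 differed by -0.86 ± 0.52 (SE) on the log2 scale, adjusted p = 0.454, and by 0.086 without IgG2a replicate 7. Ptger4 overlaps Ttc33 on the opposite strand, which had a median of 1978 reads against 373 of Ptger4, and the non-directional kit does not tell such reads apart.

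Of the leukotriene genes, Alox5 (ENSMUSG00000025701, chromosome 6, 116410077 to 116461178, minus strand) had 0.504, 0.828 and 2.13 CPM under anti-PD-1, and 0.371, 0.938 and 16.6 CPM under IgG2a. IgG2a replicate 7, with 1032 reads, and IgG2a replicate 3, with 434 reads, were the highest. The log2 fold change of Alox5 was -1.79 ± 0.74 (SE), adjusted p = 0.434, which became -0.62 when IgG2a replicate 7 was left out and 0.30 when all 3 outlying tumours were. Alox5ap (ENSMUSG00000060063, chromosome 5, 149264767 to 149288153, plus strand), needed for 5-lipoxygenase to use arachidonic acid in cells, had 38.6, 52.1 and 106 CPM under anti-PD-1, and 46.1, 52.9 and 153 CPM under IgG2a. IgG2a replicate 7 was the highest IgG2a tumour and anti-PD-1 replicate 1 the highest anti-PD-1 tumour. For Alox5ap the log2 fold change was -0.07 ± 0.28 (SE), adjusted p = 0.911, and 0.22 without IgG2a replicate 7.

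Over the 9 tested genes none passed the adjusted threshold. Of the 9, 3 genes, Hpgd, Ptgis and Alox5, had an unadjusted p under 0.05, all lower in the anti-PD-1 tumours by estimate, while 11.4% of all genes tested had such a p and 7.9% had one with a lower estimate. Without the 3 tumours that stood apart it was 1 of 9, Ptgs1, against 15.8% of all genes. The median log2 fold change over the 9 genes was -0.57 with all tumours, beside -0.05 over all genes, and 0.18 without the 3 tumours, beside 0.02 over all genes. The estimates of Ptgs1 and Ptgs2 kept their sign without the 3 tumours, and those of Hpgd and Alox5 did not.

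**Figure D3:**
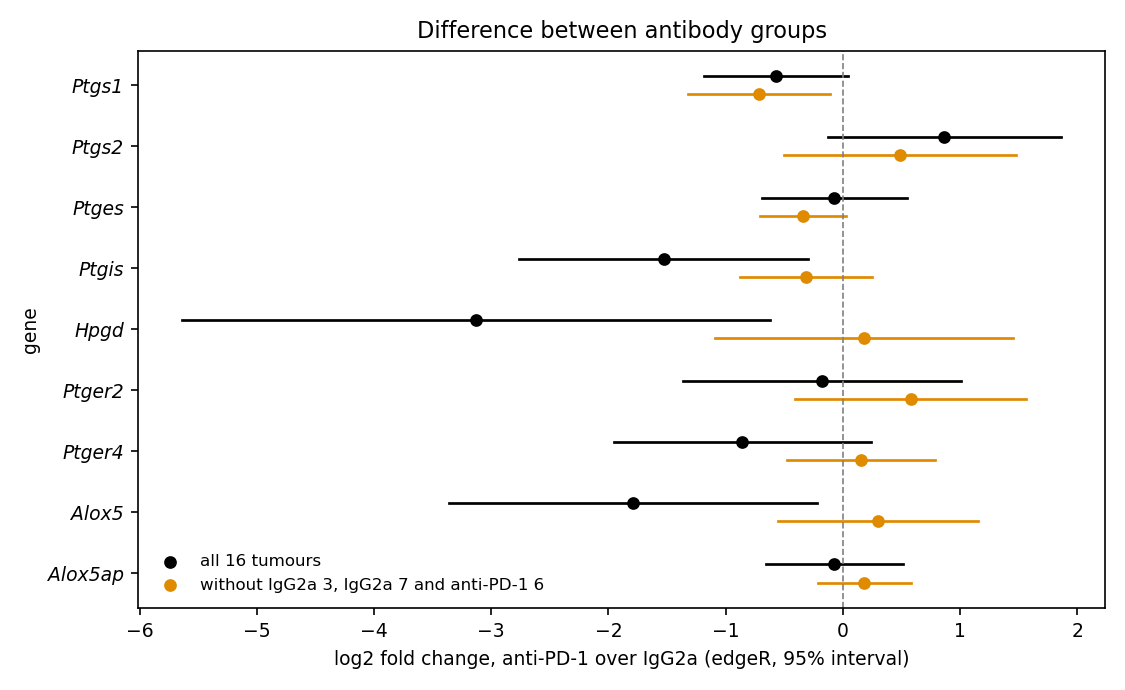
Log2 fold change of anti-PD-1 over IgG2a for the 9 tested genes with the 95% interval of the edgeR fit, for all 16 tumours (black) and without anti-PD-1 replicate 6 and the IgG2a replicates 3 and 7 (orange). The estimate of Hpgd is -3.13 with all tumours and 0.18 without the 3, while that of Ptgs1 is -0.57 and -0.72.

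The relation of Ptgs2 to Il1b, which encodes the cytokine interleukin-1 beta, was close. Il1b had 39.3, 74.0 and 298 CPM under anti-PD-1 (lowest, median, highest), and 24.4, 47.9 and 91.5 CPM under IgG2a. Anti-PD-1 replicate 1 was the highest and anti-PD-1 replicate 6 the second highest tumour for both genes, and IgG2a replicates 3 and 7 held the 2 lowest values of both. Over the 16 tumours, Pearson's r was 0.897 and Spearman's rho 0.850 on log2 CPM (permutation p = 1e-05 for r, the smallest that 100000 resamples give, and 7.0e-05 for rho, adjusted p = 1.8e-04 and 6.3e-04 over 18 relations). Pearson's r was 0.931 within anti-PD-1 and 0.904 within IgG2a (exact permutation, adjusted p = 0.00685 and 0.0388). It was 0.845 over 14 tumours without the 2 farthest from the median of Ptgs2, anti-PD-1 replicate 1 and IgG2a replicate 3, and 0.869 over 13 without the 3 that stood apart. By animal number, Pearson's r was 0.958 within the lower run and 0.867 within the higher one (exact permutation and permutation, adjusted p = 0.0250 and 0.0109). Of 16153 genes ranked by Pearson's r with Ptgs2, Il1b came 3rd, and it came 13th by Spearman's rho.

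Other genes of the interleukin-1 system and genes often induced together with Ptgs2 ranked unevenly. Cxcl1, a neutrophil-attracting chemokine, came 2nd by Pearson's r (0.932), Nfkbiz, an NF-kB regulator, 12th (0.843) and Nos2, the inducible nitric oxide synthase, 14th (0.842). Il1a came 177th (0.668), and Il1r1, the signalling receptor of interleukin-1, 3111th (0.331). Tnfaip3, an NF-kB inhibitor, came 796th (0.513). These genes were picked after their values had been seen, and the ranks describe the 16 tumours and were not tested.

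The neutrophil genes had a lower r with Ptgs2 than Il1b had over the 16 tumours, but a higher one without the 3 that stood apart (0.913 against 0.869), and the difference between the correlations was not tested. The 16 neutrophil genes that passed the filter, of 18 listed, had a mean log2 CPM that correlated with Ptgs2 at r = 0.633 and rho = 0.644 over 16 tumours (permutation p = 0.00932 and 0.00889, adjusted p = 0.0186 and 0.0200). The relation did not hold within all groups. It was 0.904 within anti-PD-1 (exact permutation, adjusted p = 0.0125) and 0.296 within IgG2a (exact permutation, adjusted p = 0.675). Within the lower run of animal numbers it was 0.869 (exact permutation, adjusted p = 0.0825), and within the higher run 0.212 (permutation, adjusted p = 0.744).

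Single tumours decided this relation. Without the 2 tumours farthest from the median of Ptgs2, r of Ptgs2 with the neutrophil mean was 0.471 (adjusted permutation p = 0.171). Without anti-PD-1 replicate 1 alone it was 0.460 (adjusted permutation p = 0.160), and without IgG2a replicate 3 alone it was 0.655 (adjusted permutation p = 0.0211), so that of these 2 the call rests on anti-PD-1 replicate 1. It was also lost without IgG2a replicate 1, the tumour with the lowest neutrophil mean, at 0.571 (adjusted permutation p = 0.0573). Without IgG2a replicate 7, which had a high neutrophil mean and a low Ptgs2, it was 0.816, and without the 3 tumours that stood apart it was 0.913. Of the 16 genes only Ltf was highest of all tumours in IgG2a replicate 7, at 118 CPM beside a median of 1.67 CPM. S100a9, Csf3r, Cxcr2 and Retnlg were there the highest of the IgG2a group, and Il1r2 was the lowest of all tumours. The part of Ltf in that mean was not tested. The summed level of the neutrophil genes was 185 to 1037 CPM under anti-PD-1 and 165 to 462 CPM under IgG2a.

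Of the 16 neutrophil genes, 15 had a positive r with Ptgs2, from -0.11 to 0.82 with a median of 0.53, and 7 passed an adjusted p of 0.05. These were Il1r2, a decoy receptor for interleukin-1 (0.819), Trem1, an activating myeloid receptor (0.737), S100a8, a subunit of calprotectin (0.727), Clec4d (0.717), the chemokine receptor Cxcr1 (0.714), the collagenase Mmp8 (0.653) and Hdc, which makes histamine (0.647). The granule gene Ltf had an r of -0.11 and the protease gene Mmp9 one of 0.27. Without the 2 tumours farthest from the median of Ptgs2 1 of 16 passed, and without the 3 that stood apart 12 did. The listed neutrophil genes Camp and Ngp were too low to test, with 0 reads of Camp in 9 of 16 tumours, and Ly6g had 50 to 330 reads per tumour.

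**Figure D4:**
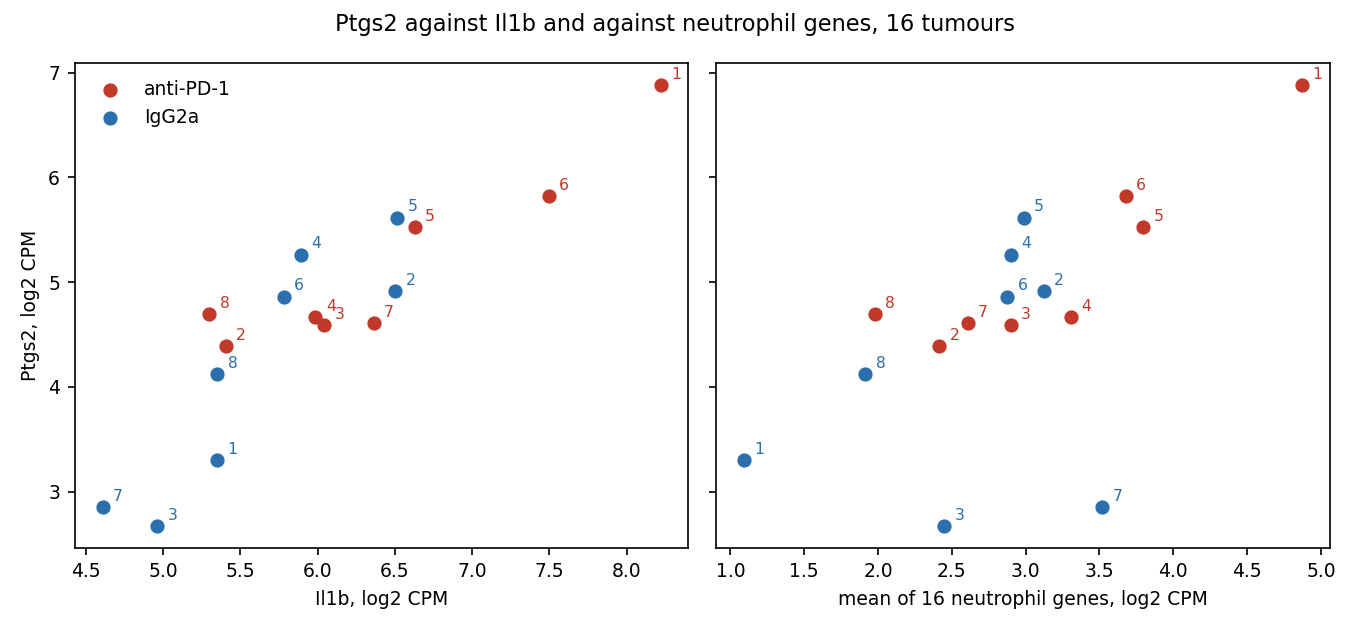
Ptgs2 (vertical, log2 CPM) against Il1b (left panel) and against the mean of 16 neutrophil genes (right panel, both log2 CPM) in 16 tumours, with anti-PD-1 in red, IgG2a in blue and replicate numbers beside the points. Ptgs2 follows Il1b in both groups (r = 0.897), while IgG2a replicate 7 lies low for Ptgs2 at a high neutrophil mean (r = 0.633).

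The protein-coding genes with the pattern most like a member were ranked by Spearman's rho over the 16 tumours among 11092 genes whose log2 CPM averaged 1 or more. For Ptgs2 these were Rnf149 (0.956), the cystine transporter gene Slc7a11 (0.938), Pmaip1 (0.918), the metal transporter gene Slc11a2 (0.912) and Mvp (0.868). For Ptgis they were St3gal3 (0.853), Acbd4 (0.853), Akap17b (0.756), the integrin gene Itga7 (0.744) and Arl4d (0.732). For Alox5ap they were Necap2 (0.953), Plekho1 (0.953), the lysosomal enzyme gene Hexa (0.950), Gmfg (0.947) and Crlf2 (0.935). Over the 13 remaining tumours the rho was 0.764 to 0.934 for the genes of Ptgs2, 0.555 to 0.769 for those of Ptgis and 0.874 to 0.907 for those of Alox5ap.

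The members also varied with each other. Of 36 pairs among the 9 tested genes 16 passed an adjusted permutation p of 0.05 over the 16 tumours, 11 of them positive. No share over pairs of all genes stands beside this count, so it does not set the members apart from other genes. Over the 13 remaining tumours 2 passed, both among the 16. Ptges ran against Ptger4, with r = -0.948 and rho = -0.879 over 16 tumours (permutation p = 1e-05, the smallest possible, adjusted p = 3.6e-04), -0.834 without the 2 tumours farthest from the median of Ptges, IgG2a replicates 3 and 7, and -0.832 over 13 (adjusted p = 0.0169). Hpgd ran with Ptger4, with r = 0.921 and rho = 0.879 over 16 tumours (adjusted p = 3.6e-04), 0.811 without the 2 tumours farthest from the median of Hpgd, IgG2a replicate 7 and anti-PD-1 replicate 3, and 0.806 over 13 (adjusted p = 0.0169). Ptgs1 and Ptgs2 had an r of -0.11 (adjusted permutation p = 0.764). Over 13 tumours it was -0.40 (adjusted permutation p = 0.407). Without the 2 tumours farthest from the median of Ptgs1, IgG2a replicates 4 and 3, it was -0.58, for which no p is given. Ptgs2 and Ptges had an r of 0.56 (adjusted permutation p = 0.0561), which was 0.18 over 13 tumours.

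Markers of other cell types moved with several members. Across 117 relations of 9 members with 13 marker lists, chosen after the values had been seen, 58 passed over 16 tumours, 19 over 13, and 17 over both. No share over all genes stands beside these counts either. The 17 included the mean of the macrophage markers with 6 members. That r was 0.951 for Ptger4, 0.900 for Hpgd, 0.850 for Ptger2, 0.826 for Alox5, 0.806 for Alox5ap and -0.905 for Ptges over 16 tumours, and 0.878, 0.790, 0.760, 0.706, 0.664 and -0.770 over 13 in the same order of genes (adjusted permutation p between 3.9e-04 and 0.00195 over 16 and between 0.00328 and 0.0479 over 13). Spearman's rho with these markers lay between 0.771 and 0.859 for the 5 positive members and was -0.818 for Ptges. Without the 2 tumours farthest from the median of the member, which differ between members but include IgG2a replicate 7 for each of these 6, r lay between 0.520 and 0.845 for the 5 and was -0.773 for Ptges. The summed macrophage markers were 1103 to 2942 CPM under anti-PD-1 and 861 to 7843 CPM under IgG2a, with none of the 10 at 0. Ptges also ran against the mean of the fibroblast markers, at r = -0.915 (rho = -0.915) over 16 and -0.855 over 13 tumours, and -0.852 without the 2 farthest for Ptges, IgG2a replicates 3 and 7. Ptger4 ran with the adipocyte markers, at r = 0.974 (rho = 0.912) over 16 and 0.920 over 13 tumours, and 0.882 without the 2 farthest for Ptger4, IgG2a replicates 4 and 7. Ptger4 also passed over both sets with the fibroblast markers (r = 0.868 and 0.740) and the B cell markers (0.729 and 0.766). With the T cell markers its r was 0.306 over 16, which did not pass, and 0.919 over 13 (adjusted permutation p = 0.00156). The summed adipocyte markers were 50.2 to 196 CPM under anti-PD-1 and 54.3 to 9023 CPM under IgG2a. The mean of the epithelial tumour markers was also among the 17, with Ptger4, Hpgd, Alox5 and Ptges. Its r was 0.880, 0.849, 0.784 and -0.860 in that order over 16 tumours, and 0.826, 0.705, 0.808 and -0.827 over 13. Without the 2 tumours farthest for the member, r was 0.809, 0.798, 0.740 and -0.811. The summed epithelial tumour markers were 49.6 to 144 CPM under anti-PD-1 and 52.4 to 542 CPM under IgG2a, highest in IgG2a replicate 7. The name is that of the list, and which cells gave these transcripts was not tested. What part these cells have in the member values was not tested.

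**Figure D5:**
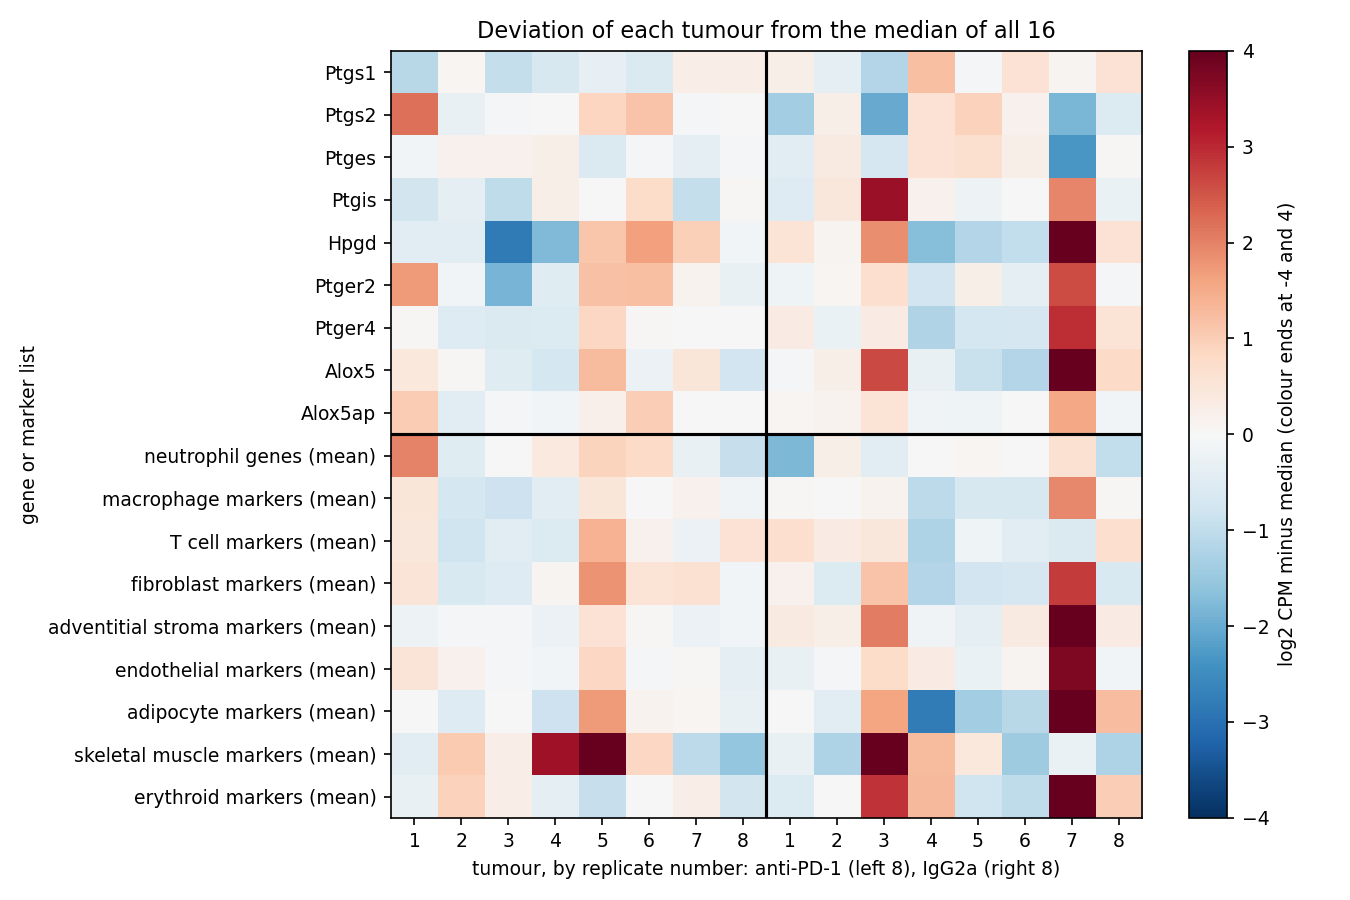
Deviation of each tumour from the median of all 16 in log2 CPM, for the 9 tested genes (upper rows) and the mean of 9 marker lists (lower rows), with the anti-PD-1 tumours left and the IgG2a tumours right of the line; colours end at -4 and 4. IgG2a replicate 7 is the highest for Hpgd, Ptger2, Ptger4, Alox5 and Alox5ap and the lowest for Ptges, and has the highest macrophage, adipocyte and erythroid markers.

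The other genes of the pathway were counted from listed groups, in which 0 passed the adjusted edgeR threshold. Of 8 tested genes of arachidonate release 3 had higher and 5 lower estimates, and 1, Pla2g2d, a secreted phospholipase of lymphoid and myeloid tissue, had an unadjusted p under 0.05 at a log2 fold change of -2.66 ± 1.08 (SE), where 11.4% of all genes tested had such a p and 7.9% had one with a lower estimate. Pla2g2d had 0, 0.185 and 0.367 CPM under anti-PD-1 (lowest, median, highest), and 0.0297, 0.208 and 6.78 CPM under IgG2a, with 6.78 CPM in IgG2a replicate 7. Its log2 fold change was -0.74 without that tumour and -0.11 without the 3 that stood apart. The cytosolic phospholipase gene Pla2g4a, which frees arachidonic acid, stood at 0.16 ± 0.18 (SE), Pla2g12a at 0.27 and Pla2g15 at -0.20. Of 7 other prostanoid synthases 3 had higher estimates, Ptges3 (0.27 ± 0.14, SE) and Ptges2 (0.24 ± 0.14, SE) among them, and 4 lower ones, among them the thromboxane synthase gene Tbxas1 (-1.28 ± 0.67, SE) and Hpgds (-1.11 ± 0.60, SE), which encodes a prostaglandin D synthase. With the 3 outlying tumours left out 7 of 7 had higher estimates, at 0.30 for Tbxas1 and 0.22 for Hpgds.

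Of 5 tested other prostanoid receptors all had lower estimates, with Ptger3, encoding EP3, at -2.78 ± 1.03 (SE), the thromboxane receptor gene Tbxa2r at -1.03, the prostacyclin receptor gene Ptgir at -0.61 and Ptger1, encoding EP1, at -0.47. Each of these 4 was highest in IgG2a replicate 7, and without the 3 tumours they lay between -0.41 and -0.14. Over the 16 tumours Ptger1 had a median of 10.6 TPM, above the 1.97 TPM of Ptger4. Of 5 genes of transport and breakdown 1 had a higher estimate, Ptgr1 at 0.32, and 4 lower ones, among them the prostaglandin transporter gene Slco2a1 at -1.11, Cbr3 at -0.50 and Ptgr2 at -0.44. Of 12 other tested leukotriene and lipoxygenase genes 3 had higher and 9 lower estimates. Of the 12, 4 had an unadjusted p under 0.05, all lower, beside 7.9% of all genes tested, namely the leukotriene C4 synthase gene Ltc4s at -4.63 ± 1.40 (SE), Dpep1, whose enzyme trims leukotriene D4, at -4.08 ± 1.43 (SE), Alox12 at -3.42 ± 1.05 (SE) and Mgst3 at -1.23 ± 0.52 (SE).

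Ltc4s had the estimate farthest from 0. It had 0.0932, 0.372 and 0.868 CPM under anti-PD-1, and 0.0594, 0.351 and 71.1 CPM under IgG2a, with 71.1 CPM in IgG2a replicate 7. All 4 genes were highest in that tumour. Without it the log2 fold change was -2.16 for Ltc4s, -0.52 for Dpep1, -1.10 for Alox12 and -0.43 for Mgst3, and without the 3 tumours 0 of 12 had an unadjusted p under 0.05. The median log2 fold changes of these lists lay between -0.61 for the receptors and -0.10 for arachidonate release with all tumours, and between -0.21 for the receptors and 0.22 for the synthases without the 3.

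Inflammatory lists around Ptgs2 mostly had positive fold changes, again with 0 genes past the adjusted threshold in edgeR. Of 12 inflammatory genes often induced with Ptgs2 12 had higher estimates, the median log2 fold change being 0.89, and of 16 neutrophil genes 15 did, the median being 0.75, beside -0.05 over all genes. Over the 13 remaining tumours the counts were 12 of 12 and 14 of 16, with medians of 0.57 and 0.88. Cxcl5, a neutrophil-attracting chemokine, had 0.311, 3.79 and 24.5 CPM under anti-PD-1, and 0.134, 0.585 and 1.22 CPM under IgG2a, giving 3.68 ± 0.82 (SE) as log2 fold change, with 0.434 as adjusted p by edgeR. The log2 fold change of Cxcl5 was 3.73 without the 3 tumours that stood apart and 3.22 to 3.86 with single tumours left out. Over all settings it lay between 1.60 and 4.29. Of the other genes of smallest p in the inflammatory list, Tnf stood at 0.81 ± 0.26 (SE), Ccl4 at 1.14 ± 0.38 (SE) and Ccl3 at 1.47 ± 0.58 (SE), and each was highest in anti-PD-1 replicate 1. Without that tumour Tnf stood at 0.55, Ccl4 at 0.69 and Ccl3 at 0.45. Of 6 interleukin-1 genes 4 had higher estimates, with Il1b at 1.01 ± 0.41 (SE) and Il1a at 1.52 ± 0.84 (SE). Without anti-PD-1 replicate 1 Il1b stood at 0.59 and Il1a at 0.10, and without the 3 tumours that stood apart Il1b stood at 0.65 and Il1a at 1.496. EP2 and EP4 raise cyclic AMP in cells, and of 10 cyclic AMP response genes 2 had higher and 8 lower estimates, with Crem at 0.36 ± 0.16 (SE) and Sik1 at -0.32 ± 0.14 (SE), both with an adjusted p of 0.434. Without the 3 tumours that stood apart 4 of these 10 were higher and 6 lower. Their median log2 fold change was -0.12 with all tumours, beside -0.05 over all genes. It was -0.16 without the 3, beside 0.02 over all genes. A part of the receptors in these estimates was not tested.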

How the data were processed

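RNA of 16 tumours was sequenced after oligo-dT selection with a kit that does not mark strand, per the labels' protocols. The deposited tables, 1 per tumour, give estimated counts and TPM per Ensembl transcript, per the file headers, with transcript lengths. The submitters' processing notes name GRCm38, edgeR and limma, and the quantifier is not given in the sources used here. Of 115088 transcripts 114200 were matched to GENCODE genes, and unmatched ones held 0.167 to 0.217% of the reads. Gene values are sums of these estimated counts over transcripts, rounded to integers.

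A filter (minimum count 10, minimum total 15) was applied, followed by TMM scaling and testing with edgeR 4.0.16 (quasi-likelihood, Benjamini-Hochberg adjustment over all 16154 genes, threshold 0.05) in R 4.3.3, a procedure tested on simulated data. DESeq2 1.42.0 and limma 3.58.1 were alternatives. Correlations used log2 CPM with a prior count of 2 and 100000 permutations, or exact permutation for groups of 8 or fewer (Python 3.11.15, scipy 1.17.1). Ratios used an exact permutation test over 12870 assignments, whose smallest p is 1.55e-04. Replicate numbers follow accession order. The 56 pairs of tumours within a group correlated between 0.794 and 0.983, and their lowest chi-square per gene was 29.4, far above sampling noise. All 10 members are named, and up to 4 genes of smallest unadjusted p of each other list. The members and lists were chosen with earlier results of these data known. P-values and the 95% intervals of the fold changes include the spread between animals, and floors of reads cover counting error only. Animal numbers fall into a lower run (3 tumours per group) and a higher run (5 per group), which the labels do not call batches.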

Additional observations from a re-analysis of the deposited data

Results flagged for a closer look

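Of 22 sets of 8 tumours examined, each a gene in an antibody group, 6 held a tumour far from the others, where chance marks about 1 in 20. Ptger4 stood at a log2 CPM of 3.36 in anti-PD-1 replicate 5, beside a group median of 2.55. The other 5 were all in IgG2a replicate 7. There Hpgd stood at 6.06 beside a group median of 0.11, Ptger4 at 5.50 beside 2.57, Ptger2 at 2.46 beside -0.15 and Alox5ap at 7.25 beside 5.72. Ptges was low in that tumour, at 6.20 beside 8.68. Macrophage, adipocyte, endothelial, erythroid and adventitial stroma markers and most epithelial tumour markers were highest in the same tumour, and their part in these values was not tested.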

How the results depend on the processing

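Of 1336 values recomputed under another setting, 1268 kept their direction and their side of the threshold. No member passed an adjusted p of 0.05 in any of 32 alternative fits. DESeq2 called 4 of all genes, where the other fits called 0. The correlation of Ptgs2 with the neutrophil genes lost its call within IgG2a (0.296), within the lower (0.869) and higher (0.212) run of animal numbers, without the 2 tumours farthest from the median of Ptgs2 (0.471), without anti-PD-1 replicate 1 (0.460) and without IgG2a replicate 1 (0.571), and ranged from 0.460 to 0.816 with single tumours left out. The Ptgs2 to Ptgs1 difference was 1.26 without the 3 tumours that stood apart, 1.89 and 1.42 within the lower and higher run, and 1.21 to 1.83 with single tumours left out. Pairs of members passing were 2 without the 3. The causes were not tested, and the fits within runs of animal numbers and the pairs without the 3 were chosen after seeing the data. No paired analysis was possible because the labels give no replicate numbers shared between the groups.

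The log2 fold changes that changed sign were these. With DESeq2, which replaced the counts of Hpgd and Ptger4 in IgG2a replicate 7, they were 0.027 for Hpgd, 0.086 for Ptger4, 0.094 for Tbxas1, 0.13 for Hpgds and 0.11 for Slco2a1. With limma-voom it was 0.12 for Ptges. With quality weights they were 0.19 for Ptger4, 0.10 for Alox5, 0.041 for Alox5ap, -0.057 for Pla2g4a, 0.10 for Tbxas1, 0.23 for Hpgds, 0.015 for Ptger3, 0.027 for Slco2a1, 0.039 for Cbr3, 0.80 for Dpep1 and -0.036 for Il1a. On log2 TPM Pla2g4a stood at -0.023 with 1 added and -0.015 with 0.1 added.

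Without the 3 tumours they were 0.18 for Hpgd, 0.58 for Ptger2, 0.16 for Ptger4, 0.30 for Alox5, 0.18 for Alox5ap, 0.0033 for Pla2g15, -0.025 for Pla2g4a, 0.30 for Tbxas1, 0.22 for Hpgds, 0.31 for Slco2a1, 0.22 for Cbr3, 0.13 for Ltc4s and 0.96 for Dpep1. Within the lower run of animal numbers they were 0.27 for Ptges, 0.35 for Ptger2, 0.041 for Alox5ap, -0.26 for Pla2g12a and 0.051 for Ptger1. With single tumours left out the values ranged from -0.23 to 0.042 for Ptges, -0.46 to 0.55 for Ptger2, -1.03 to 0.086 for Ptger4, -0.21 to 0.22 for Alox5ap, -0.25 to 0.051 for Pla2g15, -1.46 to 0.10 for Tbxas1, -1.26 to 0.14 for Hpgds, -1.34 to 0.12 for Slco2a1 and -0.95 to 0.56 for Cbr3. Ptgds, with 91 reads in all, lay below what this depth can compare.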
